A study of Danio rerio with 6 samples.

Results

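The genes that flank rhpn2 on zebrafish chromosome 7 were described in whole embryos of Danio rerio at 72 hours post fertilization (hpf). Members were the rows of the deposited gene table on chromosome 7 with a start from 28100000 to 48100000, which is 10 Mb on either side of a centre inside rhpn2. The rule leaves out rhpn2, ctrb1 and insig1, and it uses coordinates and names but no expression value. The members and the gene lists used below were, however, chosen with earlier results of these data known. The rule gave 426 genes of 31624 in the table. RNA was sequenced from 3 samples of rhpn2 mutants and 3 samples of wild type, each lettered a to c. The labels state that the gene was knocked out in the mutant embryos. They name no allele, no way of making it, no zygosity, no strain, no shared clutch or parents and no number of embryos per sample, for either group. With no clutch or parents given, a p-value here reflects only how the 3 samples of a group vary, and part of that may be technical.

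DNA close to a selected mutation is inherited together with it, because recombination between nearby positions is rare. Mutant fish of a line can for this reason share a haplotype around the mutated gene that wild type fish lack, and genes there can differ in expression for reasons of their own sequence. Whether the mutants here share such a haplotype was not tested.

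The targeted gene was low in every mutant library, with 195, 194 and 188 counts of rhpn2 in mutant a, b and c, against 685, 755 and 743 counts in wild type a, b and c. Total counts per library were 14918069 to 17056923. Of 24 marker genes listed for 8 tissues of the embryo, 23 were found and 22 had at least 1 FPKM in every library. These were markers of muscle, neurons, lens, liver, blood, heart and epidermis, and for the pancreas only try. The other pancreas marker found, ela2l, had 0.28 FPKM in its lowest library. FPKM is a read count scaled by exonic gene length and by the library total. Coordinates are as deposited, and the sources used here do not give their genome build.

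As a whole the flanking genes changed about as often as genes elsewhere. Of the 426 members, 304 had enough reads to be tested, 70 had too few, and 52 had no count in any library. Among the 304 tested, 106 passed edgeR's quasi-likelihood test (adjusted p under 0.05), with 53 rises and 53 falls in mutants. That is 34.9% of the tested members, against a background of 33.2% over all 20032 genes tested, where 16.5% were higher and 16.7% lower. In this comparison of bulk embryos, fewer cells of a type and less RNA per cell cannot be told apart.

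The size of the changes was also close to that elsewhere. The median absolute log2 change (mutant over wild type) was 0.297 in the flanking genes and 0.295 over all genes. The median signed log2 change was 0.044 in the flanking genes and 0.006 over all genes. An absolute log2 change of at least 1 with a passed test was reached by 21 members, 6.91%, against 7.94% of all genes, with 6 members higher (3.18% of all genes were) and 15 lower (4.76% of all genes were) in mutants. The FPKM ranges of the groups did not overlap for 168 tested members, 55.3%, against 49% of all genes tested. FPKM does not use the TMM factors of the test, which were 1.016 to 1.0669 in mutants and 0.9225 to 0.9947 in wild type. Overlap and log2 changes are therefore given on different scales throughout. Directions depended on the scaling between libraries. With library totals in place of TMM factors, 72 members were higher and 34 lower, 67.9% higher among those that passed, against 65% over all genes, and the median log2 change of all genes moved to 0.113. Rises numbered 34 without mutant a and 35 without mutant b, and falls 44 and 37. Fewer genes passed in these fits, 25% of members and 24.5% of all genes without mutant a. Without mutant b the shares were 23.1% and 24.1%.

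Other chromosomes and the rest of chromosome 7 gave similar shares. Outside the window, 247 of 714 tested genes of chromosome 7 passed, 34.6%. Whole nuclear chromosomes ranged from 29% on chromosome 24 to 39.6% on chromosome 1, and 5 of 25 had a larger share than the flanking genes. The median expression level of the tested members, 5.31 FPKM, was also close to the 5.3 FPKM of all genes tested. These counts were not compared with a test.

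**Figure D1:**
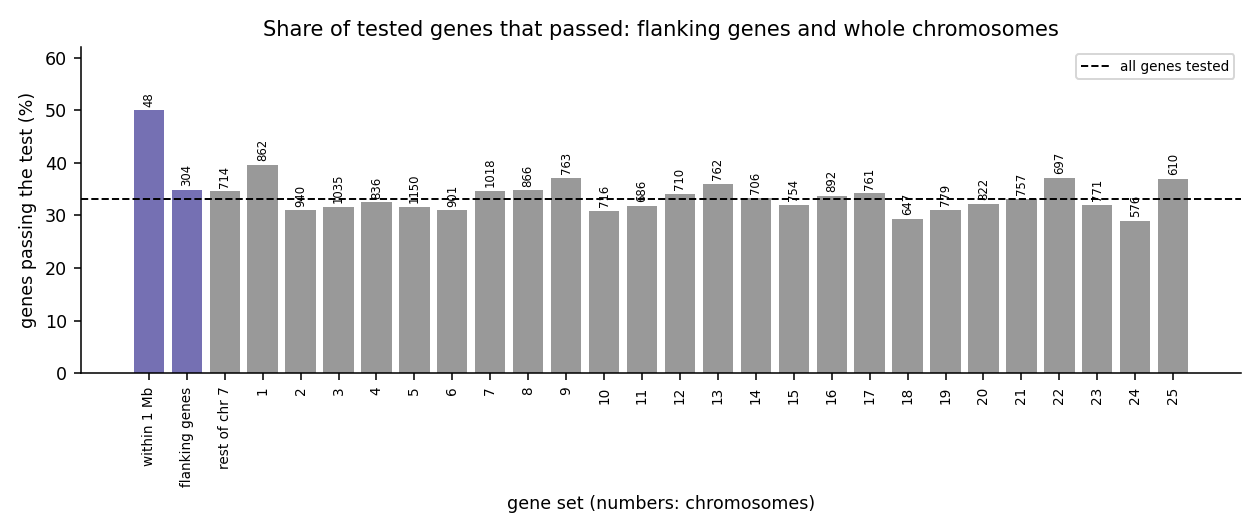
Share of tested genes that passed at an adjusted p below 0.05 (y axis, %), for flanking genes within 1 Mb of the centre, for all flanking genes, for the rest of chromosome 7 and for each nuclear chromosome (x axis), with the number of genes tested above each bar and the share over all genes as a dashed line. All flanking genes stand at 34.9%, among chromosomes that range from 29% to 39.6%, while the 48 genes within 1 Mb, a set singled out after its share was seen, stand at 50%.

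Within 2 Mb of the centre, 30 of 76 tested genes passed, 39.5%, against 33.2% of all genes. By distance, the nearest of 4 bands held the largest share. Within 1 Mb of the centre, 24 of 48 tested genes passed, 50%, with 12 higher and 12 lower in mutants, a count that was singled out after it was seen. At 1 to 2 Mb 6 of 28 passed (21.4%), at 2 to 5 Mb 27 of 82 (32.9%) and at 5 to 10 Mb 49 of 146 (33.6%). Beyond 1 Mb the total was 82 of 256, or 32%. Of the genes within 1 Mb, 10 of 17 tested on the side of lower coordinates and 14 of 31 on the side of higher coordinates passed, 58.8% and 45.2%.

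In the bands beyond 1 Mb the share was at most 33.6%, and shares as high as 50% were found elsewhere. Farther out in the window, 8 of 14 tested genes passed between 6 and 7 Mb on the side of lower coordinates (57.1%), 6 of them falls. Across the nuclear chromosomes, 26 of 518 consecutive windows of 2 Mb with at least 20 tested genes had a share of 50% or more. Their shares ran from 9.52% to 68.25%, with a median of 32.56%. On chromosome 7 there were 3 such windows of 27, the highest at 57.14%. None of these windows is the set within 1 Mb of the centre, and shares scatter more where few genes were tested. The window from 38 to 40 Mb on chromosome 7 had 23 of 58 passing, 39.66%. Ranked over the whole window, the size of a change did not follow distance. Spearman's rho between the absolute log2 change and the absolute distance was 0.022 across 304 genes, which share their 6 libraries and are not independent. Within 1 Mb, the set singled out after it was seen, 7 of 48 genes passed with an absolute log2 change of at least 1. That is 14.6%, the largest share of the 4 bands, against 7.94% of all genes. Between 1 and 2 Mb 0 of 28 did, between 2 and 5 Mb 2 of 82 (2.44%), and between 5 and 10 Mb 12 of 146 (8.22%). Of the 48 tested genes within 1 Mb, 22 overlap another annotated span, and 10 of these 22 passed. Among all 304 tested members, 87 overlap another span. Reads of overlapping genes may be shared.

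**Figure D2:**
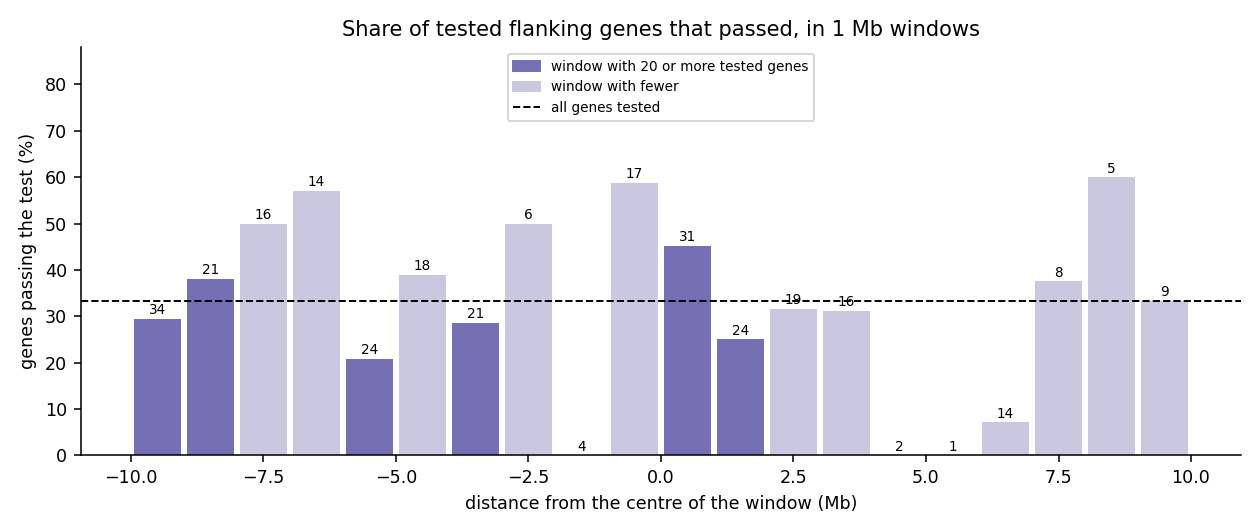
Share of tested flanking genes that passed (y axis, %) in 1 Mb windows by distance of the gene start from the centre (x axis, Mb). Numbers above bars are genes tested, paler bars hold fewer than 20, and the dashed line is the 33.2% of all genes. The window just right of the centre reaches 45.2% of 31 genes and its right neighbour 25% of 24.

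**Figure D3:**
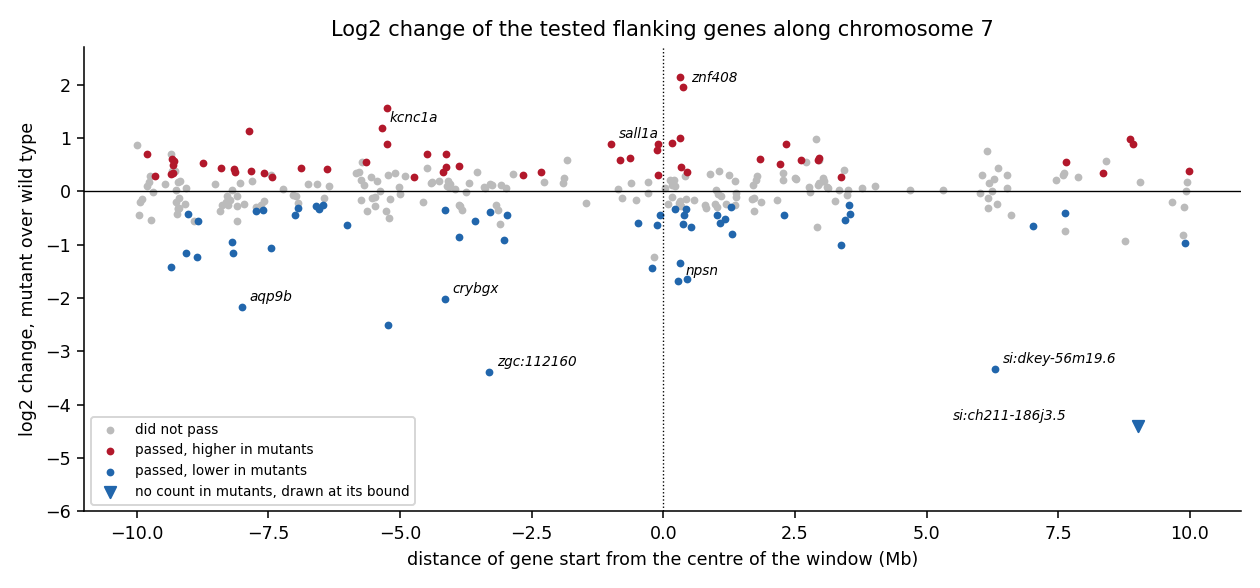
Log2 change of each tested flanking gene (y axis, mutant over wild type) by distance of its start from the centre (x axis, Mb). Red and blue points passed at an adjusted p below 0.05, grey points did not, and the triangle marks si:ch211-186j3.5, drawn at its bound of -4.4 because mutants had no count. Rises and falls lie side by side in most of the window.

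Directions of neighbouring genes were mixed, with a few small windows mostly of one direction. Consecutive tested members that both passed formed 39 pairs, and 19 of these, 48.7%, had the same direction. Over all genes 1383 of 2315 such pairs, 59.7%, had the same direction. These shares were not compared with a test. Among 1 Mb windows, the one from 1 to 2 Mb on the side of higher coordinates held 1 rise and 5 falls of 24 tested genes. The one from 2 to 3 Mb held 5 rises and 1 fall of 19, and the one from 3 to 4 Mb on the side of lower coordinates 1 rise and 5 falls of 21. These windows were picked after their counts were seen. Others were even, such as those from 7 to 8 and from 8 to 9 Mb on the side of lower coordinates, each with 4 rises and 4 falls. Over all genes 16.5% were higher and 16.7% lower. Of the 19 pairs of members, 2 were genes whose spans overlap, so that reads may be shared.

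The 10 tested genes nearest to the centre gave a mixed picture: 4 rose, 2 fell and 4 did not pass, beside 16.5% of all genes higher and 16.7% lower. On the side of lower coordinates all 5 passed. Closest to rhpn2 there is slc7a10a (38044389 to 38069416, minus strand), whose product carries small neutral amino acids across the cell membrane. It had 11.8, 9.01 and 9.31 FPKM in mutant a, b and c, against 11.7, 12.5 and 13.8 FPKM in wild type a, b and c. Mutant a lay within the wild type range of FPKM, so the groups overlap on that scale, which omits the TMM factors behind the call. The log2 change was -0.44 (SE 0.11, adjusted p 0.00833), and the call was lost with library totals and with limma (adjusted p 0.0568 to 0.0615). Its span overlaps si:ch211-134o20.4 on the other strand, which had 6 counts in mutants together and 0 in wild type.

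The next gene outwards, lrp3 (38007602 to 38038919, plus strand), encodes a receptor of the low density lipoprotein receptor family. It had 3.3, 3.13 and 2.85 FPKM in mutants, against 1.13, 1.55 and 2.01 FPKM in wild type. Every mutant library was above every wild type library, and the log2 change was 0.88 (SE 0.17, adjusted p 0.00186). Beside it gpatch1, which encodes a protein with a G patch domain, had 9.06, 9.04 and 7.65 FPKM in mutants and 6.25, 6.43 and 6.67 FPKM in wild type, a log2 change of 0.30 (adjusted p 0.0385) that was lost in 6 of the alternatives (adjusted p 0.0737 to 0.134). Then cnep1r1, whose product is the regulatory subunit of a nuclear envelope phosphatase, had 8.4, 8.5 and 7.67 FPKM in mutants, against 13.3, 10.7 and 11.3 FPKM in wild type. It fell by 0.63 on the log2 scale (SE 0.14, adjusted p 0.00478) with no overlap between groups. The outermost of the 5, si:dkey-78a14.4, rose at a low level, with 46, 48 and 40 counts in mutants and 21, 25 and 22 counts in wild type, and its call was lost in 7 of the alternatives (adjusted p 0.058 to 0.0925).

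On the side of higher coordinates only nudt19 passed among the nearest 5. It starts at 38258005, encodes a nudix hydrolase, and had 6.98, 8.01 and 7.15 FPKM in mutants, against 3.5, 3.62 and 3.79 FPKM in wild type. The groups were far apart relative to their spread, at 7.38 ± 0.552 and 3.64 ± 0.146 FPKM in mutants and wild type (SD, n = 3 each), a log2 change of 0.91 (SE 0.13, adjusted p 0.0002). The gene directly after rhpn2, cep89, which encodes a centrosomal protein, had 1.27, 1.8 and 1.47 FPKM in mutants and 1.13, 1.61 and 1.3 FPKM in wild type. The groups overlap and the log2 change was 0.07 (SE 0.20, adjusted p 0.826). Values of zgc:165481 (log2 change -0.23, adjusted p 0.518), the cystine transporter gene slc7a9 (0.20, adjusted p 0.69) and the RNA-binding protein gene celf1 (-0.10, adjusted p 0.43) also overlapped between groups. The span of slc7a9 reaches from 38235748 to 38415134 and covers nudt19, celf1 and 14 other annotated genes, so its few counts may be shared with them.

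**Figure D4:**
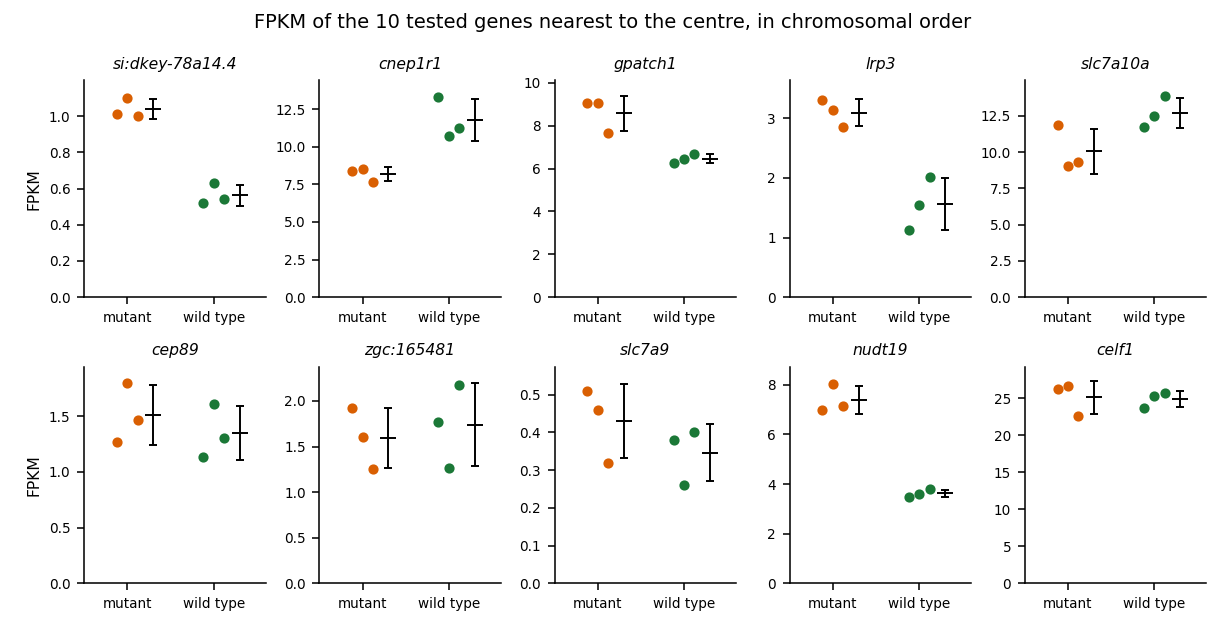
FPKM (y axis of each panel) of the 10 tested genes nearest to the centre in chromosomal order, 5 on each side of rhpn2, in mutant (orange, left) and wild type (green, right) libraries a, b and c, with the mean and SD as black marks. In lrp3, gpatch1, cnep1r1, si:dkey-78a14.4 and nudt19 the groups do not overlap, while in slc7a10a mutant a reaches into the wild type range.

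A gene-dense stretch inside and just beyond the span of slc7a9 held larger changes close to rhpn2. The astacin-type metalloprotease genes c6ast4, c6ast3, npsn and c6ast1 lie close together there. Nephrosin, the product of npsn, is known in fish as a protease of neutrophils and blood-forming tissue. It had 1.9, 2.24 and 3.01 FPKM in mutants, against 7.72, 7.13 and 6.41 FPKM in wild type. The groups did not overlap, which the choice of the largest falls requires. The log2 change was -1.69 (SE 0.20, adjusted p 5.49e-05). The other 3 had too few reads to be tested, at 5 counts in mutants and 7 in wild type for c6ast3 and 5 and 2 for c6ast1. For c6ast4 the counts were 2, 0 and 1 in mutants and 14, 0 and 6 in wild type, so that wild type b was at 0 like mutant b. Summed and corrected for library totals multiplied by their TMM factors, its wild type counts were 7.67 times its mutant counts. The exact 95% binomial interval of 2.28 to 40.3 covers counting error only.

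Beyond the astacin genes, rises and falls lay side by side. The gene aplnr2, for a receptor of apelin peptides, had 2.58, 3.07 and 1.95 FPKM in mutants and 0.96, 1.19 and 1.37 FPKM in wild type, 2.004-fold higher in mutants (adjusted p 0.00439). It overlaps si:dkey-150l7.8 on the other strand, which also rose, with 12, 16 and 14 counts in mutants and 4, 3 and 1 counts in wild type, so reads of this pair may be shared. The next gene, cd59, whose product keeps complement from forming pores in the body's own cells, had 3.64, 3.42 and 2.85 FPKM in mutants, against 8.97, 7.15 and 7.1 FPKM in wild type. It fell by 1.34 on the log2 scale (SE 0.19, adjusted p 0.000191). After it, fbxo3 rose (log2 change 0.45, adjusted p 0.0103) and syt13 did not pass (-0.28, adjusted p 0.382).

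The zinc finger gene znf408 (38473666 to 38478939, plus strand) rose most among the members with at least 1 FPKM in the higher group. It had 3.34, 2.82 and 2.53 FPKM in mutants, against 0.48, 0.84 and 0.77 FPKM in wild type. Every mutant library was above every wild type library, which the choice of the largest rises requires. The log2 change was 1.95 (SE 0.23, adjusted p 4.98e-05), a 3.86-fold higher level, and no other annotated span overlaps it. Directly beyond it f2, which encodes prothrombin and is made in liver, had 32.1 ± 2.33 FPKM in mutants and 45.8 ± 3.28 FPKM in wild type (SD, n = 3 each), a log2 change of -0.62 (adjusted p 0.000711). Liver markers were also lower in mutants, with mean levels of 12.1 FPKM in mutants and 36 FPKM in wild type for fabp10a, 463 and 793 FPKM for tfa and 3131 and 3871 FPKM for apoa2, and their part in the change of f2 was not tested. Further falls in this stretch were those of arhgap1 (-0.44), which encodes a GTPase-activating protein, of atg13 (-0.34), an autophagy gene, and of creb3l1 (-0.67), a membrane-bound transcription factor gene of the secretory pathway. The rise of phf21aa (0.36) stood beside the fall of zgc:110699 (-1.64), whose span it overlaps. These genes of the stretch, outside the nearest 5 and the largest changes, were named after their values were seen.

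The largest falls across the window were in genes of several tissues and lay at many distances. The serine-type peptidase gene zgc:112160 (34790655 to 34794980) had 17, 9 and 1 counts in mutants, against 104, 39 and 104 counts in wild type. Mutant c is the lowest by far, and wild type b is lower than the other wild type libraries. The log2 change was -3.39 (SE 0.51, adjusted p 0.00032), and without mutant a it was -4.15. The next peptidase gene along, zgc:136461, was too low to test, with 7, 2 and 0 counts in mutants and 9, 0 and 7 counts in wild type. In both genes the same libraries, mutant c and wild type b, were the lowest of their group. Pancreas markers were lower in mutants too, with means of 11.6 FPKM in mutants and 42.9 FPKM in wild type for try and 0.523 and 3.07 FPKM for ela2l, and their part was not tested.

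The uncharacterised gene si:dkey-56m19.6 (start 44391400) had 4, 5 and 4 counts in mutants, against 37, 32 and 48 counts in wild type. That is 10.1-fold lower in mutants, with a log2 change of -3.33 (SE 0.36, adjusted p 2.91e-05). Its neighbour si:dkey-56m19.5, one of the more abundant members at 112 ± 7.36 FPKM in mutants and 88.5 ± 5.22 FPKM in wild type (SD, n = 3 each), did not pass (log2 change 0.23, adjusted p 0.077). The gene si:ch211-194p6.12 had 20, 4 and 6 counts in mutants and 61, 53 and 33 counts in wild type, a log2 change of -2.50 (SE 0.44, adjusted p 0.001), and of -3.40 without mutant a, the highest mutant library. Its span overlaps 3 other annotated genes.

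Among the characterised genes that fell, aqp9b, for a channel of water and glycerol, had 1.35, 0.86 and 1.1 FPKM in mutants, against 4.87, 4.02 and 4.98 FPKM in wild type. It was 4.5-fold lower in mutants (log2 change -2.17, SE 0.19, adjusted p 7.24e-06), the smallest adjusted p of the window. The crystallin gene crybgx, named for a protein family of the eye lens, had 43.5, 21.9 and 30.3 FPKM in mutants, against 143, 87.5 and 126 FPKM in wild type. In each group library b was the lowest (log2 change -2.01, SE 0.22, adjusted p 3.02e-05). The groups did not overlap, which the choice of the largest falls requires. The 3 lens markers had means of 22.8 FPKM in mutants and 25.4 FPKM in wild type (cryaa), 695 and 1131 FPKM (crybb1) and 49.1 and 65.8 FPKM (mipb), and their part in the fall of crybgx was not tested.

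The remaining falls of the set were smaller. The transporter gene abcc12, 0.21 Mb from the centre on the side of lower coordinates, had 0.82, 0.83 and 0.49 FPKM in mutants and 1.71, 1.8 and 1.89 FPKM in wild type (log2 change -1.43, SE 0.20, adjusted p 0.000177). The neuritin-like gene nrn1lb had 0.56, 0.23 and 0.52 FPKM in mutants, against 0.71, 1.47 and 1.09 FPKM in wild type (-1.42, SE 0.36, adjusted p 0.00968). The annexin gene anxa2b, for a protein that binds membranes in the presence of calcium, had 6.12, 4.42 and 4.95 FPKM in mutants and 12.6, 8.55 and 12.7 FPKM in wild type (-1.24, SE 0.18, adjusted p 0.000247). None of the 3 had groups that overlap, which the choice of these genes requires.

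The largest rises were smaller than the largest falls. The highest log2 change of any tested member was 2.14. It was that of a gene within 1 Mb of the centre, on the side of higher coordinates, which passed but lay outside the rule for named genes. Among the largest rises chosen by that rule, zgc:153219 came behind znf408, with 45, 46 and 52 counts in mutants and 16, 14 and 12 counts in wild type (log2 change 1.56, SE 0.29, adjusted p 0.00126). The potassium channel gene kcnc1a, for a Shaw-related channel of neurons that fire fast, had 7.15, 5.5 and 4.86 FPKM in mutants, against 2, 2.48 and 2.65 FPKM in wild type (1.19, SE 0.14, adjusted p 4.87e-05). Of the neuron markers, elavl3 had means of 92.7 FPKM in mutants and 48.5 FPKM in wild type, elavl4 47.7 and 30.2 FPKM, and snap25a 73.4 and 68.9 FPKM, and their part in the rise of kcnc1a was not tested. The deubiquitinase-related gene fam63b, which overlaps sltm on the other strand (itself higher in mutants by 0.38 on the log2 scale), had 3.62, 3.05 and 2.98 FPKM in mutants and 1.17, 1.53 and 1.4 FPKM in wild type (1.13, SE 0.13, adjusted p 5.52e-05). In all 3 the lowest mutant library was above the highest wild type library, which the choice of these genes requires.

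Of the other large rises, sall1a, a zinc finger transcription factor gene, had 11.4, 11.4 and 9.77 FPKM in mutants, against 4.71, 5.95 and 5.78 FPKM in wild type (log2 change 0.88, SE 0.10, adjusted p 4.78e-05). The zinc finger gene znf507 had 3.46, 3.22 and 2.78 FPKM in mutants and 0.91, 1.81 and 1.77 FPKM in wild type (0.97, SE 0.20, adjusted p 0.00273). The values of rnf32, a RING finger gene, were 1.76, 0.94 and 1.44 FPKM in mutants and 0.8, 0.64 and 0.63 FPKM in wild type, and its call (0.89, SE 0.32, adjusted p 0.0478) was lost in 6 of the alternatives, with adjusted p 0.0669 to 0.187.

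**Figure D5:**
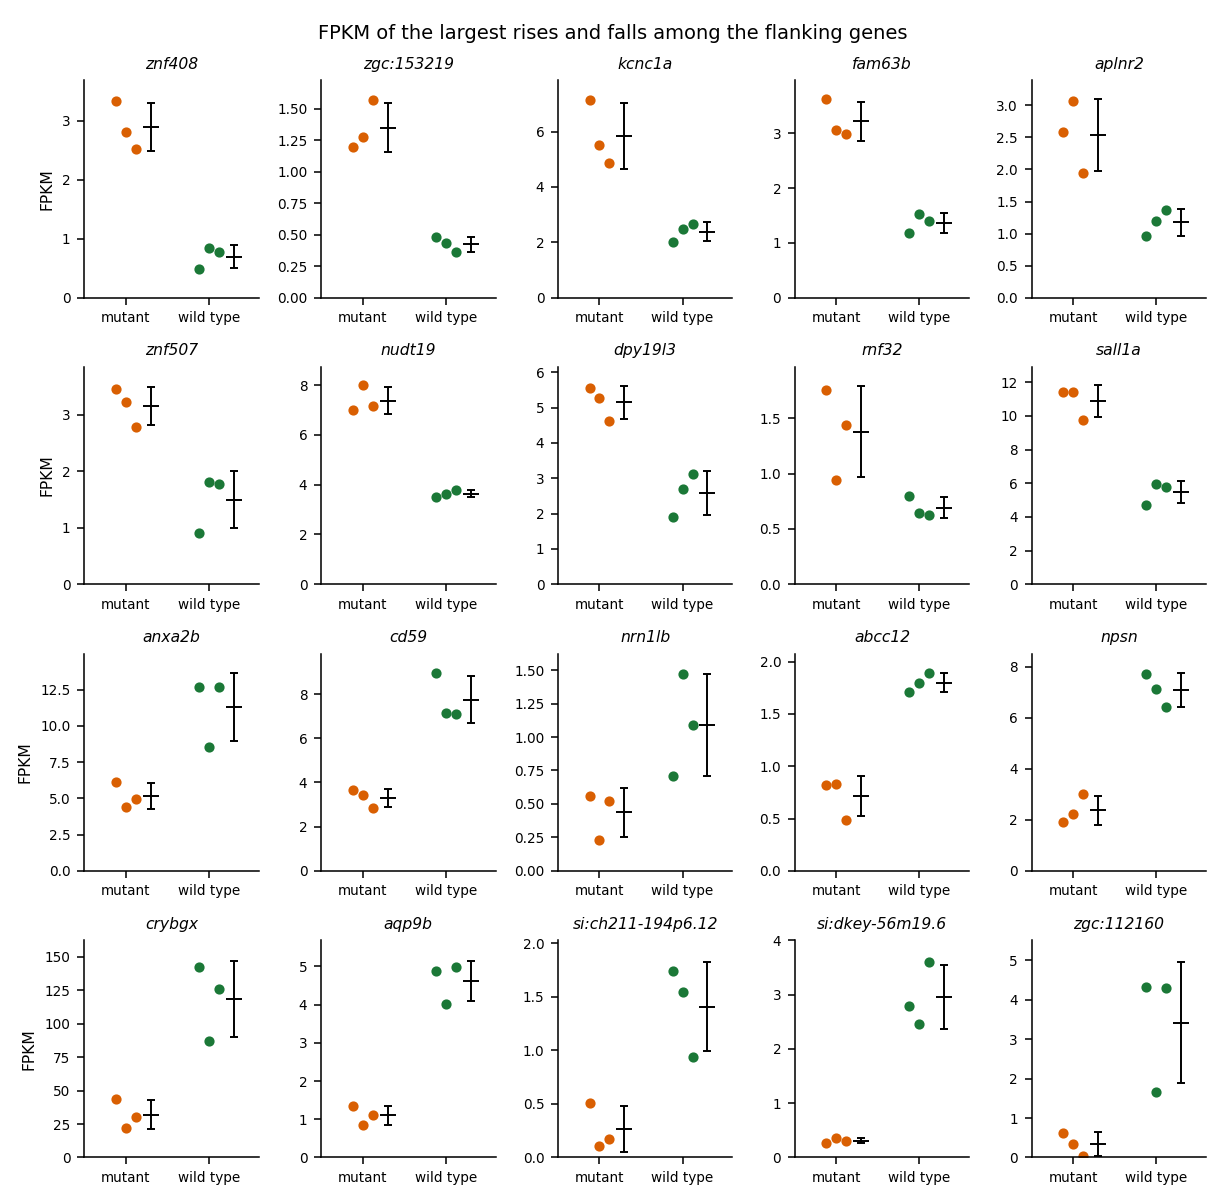
FPKM (y axis of each panel) of the 10 largest rises (upper 2 rows) and 10 largest falls (lower 2 rows) among members that passed without overlap and had at least 1 FPKM in the higher group, in mutant (orange, left) and wild type (green, right) libraries, with the mean and SD as black marks. The separation of groups in each panel follows from how the genes were chosen, and the panels differ in the spread within a group, as in zgc:112160 and rnf32.

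An antisense pair near the end of the window moved in opposite directions. The gene dpy19l3 (47014228 to 47144181, plus strand), for an enzyme that attaches mannose to tryptophan, had 5.54, 5.27 and 4.62 FPKM in mutants, against 1.91, 2.7 and 3.12 FPKM in wild type (log2 change 0.90, SE 0.14, adjusted p 0.00035). Inside its span, on the minus strand, si:ch211-186j3.5 had 0 counts in every mutant library and 13, 26 and 16 counts in wild type a, b and c. Against a floor of 3 counts over the mutant group it was at least 21.1-fold lower in mutants (adjusted p 0.000213). The sources used here do not say whether counting used the strand, so reads of this pair may have been split between both genes.

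Genes that lie near RHPN2 in the human genome were still neighbours of rhpn2 in part. Of 24 zebrafish symbols listed, 10 were members and all 10 were tested, 4 rose and 1 fell, which is 50% called beside 33.2% of all genes. Their median log2 change was 0.189, against 0.006 over all genes. The rises were lrp3, gpatch1, nudt19 and dpy19l3, and slc7a10a fell. Of these, lrp3, gpatch1, nudt19 and slc7a10a are also among the 10 nearest genes given above, and the calls of gpatch1 and slc7a10a were lost in alternatives. The list was made with earlier results of these data known. The transcription factor genes cebpa and cebpg, which act in liver, fat and blood cells, lie side by side and did not pass. For cebpa the values were 15.2, 16.9 and 15.7 FPKM in mutants and 15, 12 and 12.1 FPKM in wild type (log2 change 0.18, SE 0.12, adjusted p 0.287), and without wild type a its adjusted p was 0.0201. For cebpg they were 17.9 ± 1.36 FPKM in mutants and 16.8 ± 0.577 FPKM in wild type (SD, n = 3 each; -0.02, SE 0.09, adjusted p 0.874). The last member, rgs9bp, for a protein that anchors a regulator of phototransduction, had a log2 change of -0.66 (SE 0.39, adjusted p 0.215).

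The Iroquois cluster lies 2.3 to 2.9 Mb from the centre. Iroquois genes encode homeobox transcription factors that pattern the neural plate, heart and other organs. Of 16 symbols listed for the cluster and its neighbours, 11 were members, all tested, of which 3 rose and 2 fell, 45.5% called beside 33.2% of all genes. The list was made with earlier results of these data known. Their median log2 change was 0.179, against 0.006 over all genes. The values of irx3a were 26.5, 24.7 and 21.5 FPKM in mutants and 18.4, 16.3 and 17.7 FPKM in wild type (log2 change 0.36, adjusted p 0.0158, lost in 4 of the alternatives), and those of irx5a were 25.4, 24.9 and 22.4 FPKM in mutants and 19.3, 16 and 19 FPKM in wild type (0.31, adjusted p 0.0399, lost in 7). The groups did not overlap in either gene. The third Iroquois gene, irx6a, varied more between libraries, with 3.84, 1.73 and 3.51 FPKM in mutants and 1.75, 3.24 and 1.74 FPKM in wild type (0.32, SE 0.30, adjusted p 0.428).

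Of the other listed genes, sall1a rose as given above. It lies within 1 Mb of the centre, closer than the Iroquois genes, so its rise is also counted in that band. The gelatinase gene mmp2, for an enzyme that degrades collagen, fell to 64.8, 65 and 60.6 FPKM in mutants, against 76.8, 81.2 and 81.4 FPKM in wild type (log2 change -0.44, SE 0.08, adjusted p 0.00185). The noradrenaline transporter gene slc6a2 had 1.3, 1.25 and 1.05 FPKM in mutants and 2.12, 1.69 and 2.48 FPKM in wild type (-0.91, SE 0.17, adjusted p 0.00142). The RNA demethylase gene fto (0.18, adjusted p 0.419), the chromatin remodeller gene chd9 (0.25, adjusted p 0.124), aktip (0.16, adjusted p 0.2), tox3 (-0.23, adjusted p 0.131) and lpcat2 (0.06, adjusted p 0.767) did not pass. Under alternatives aktip passed with library totals (adjusted p 0.0399) and with both limma settings (adjusted p 0.0322 and 0.033), and tox3 passed without wild type a (adjusted p 0.043).

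The neighbourhood of shha lies 2.2 to 2.5 Mb from the centre on the other side. This gene encodes the secreted Sonic hedgehog protein, and in mouse and human its limb enhancer lies within an intron of LMBR1. The level of shha was 6.4, 6.62 and 5.68 FPKM in mutants and 4.74, 4.52 and 5.28 FPKM in wild type. The groups did not overlap, but the log2 change of 0.25 (SE 0.11) missed the threshold with an adjusted p of 0.0818, and it passed with library totals (0.36, adjusted p 0.0258) and with both limma settings (adjusted p 0.0499 and 0.0487). Of 12 symbols listed, 8 were members and were tested, 2 rose and 1 fell, and these 37.5% are close to the 33.2% of all genes. The list was made with earlier results of these data known. Their median log2 change was 0.241, against 0.006 over all genes.

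The fall was that of lmbr1 itself, with 6.36, 5.74 and 6.12 FPKM in mutants, against 6.71, 7.53 and 8.7 FPKM in wild type (log2 change -0.44, SE 0.10, adjusted p 0.00603), a call that was lost with limma (adjusted p 0.073 and 0.074). Its span overlaps that of rnf32, which rose. The ubiquitin ligase gene ube3c rose (0.51, SE 0.10, adjusted p 0.00236), at 8.4, 7.57 and 7.67 FPKM in mutants and 4.41, 5.68 and 5.38 FPKM in wild type. The homeobox gene mnx1 of motor neurons and pancreas (0.34, adjusted p 0.183), nom1 (0.21, adjusted p 0.259), rbm33a (0.23, adjusted p 0.146) and the chaperone gene dnajb6b (-0.17, adjusted p 0.299) did not pass. Another homeobox gene of this stretch, eng2a, which marks the boundary of midbrain and hindbrain, rose by 0.59 (adjusted p 0.0259) and was named after its value was seen.

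By the roles given in the deposited Gene Ontology terms, transporters and peptidases of the window passed mostly downwards. Of 15 tested transmembrane transport genes 7 fell and 1, kcnc1a, rose, with a median log2 change of -0.018. Over all genes of that role 173 of 703 fell and 66 rose, with a median of -0.138. Besides aqp9b, abcc12, slc6a2 and slc7a10a, the falls were those of trpm1a, a cation channel gene (-1.15, adjusted p 0.0202), slc22a18 (-0.52, adjusted p 0.00679) and atp6v0d1, for a subunit of the vacuolar proton pump (-0.39, adjusted p 0.00656). For trpm1a the groups overlapped at a low level, with 0.29, 0.26 and 0.54 FPKM in mutants and 0.53, 1.12 and 0.58 FPKM in wild type. Of 12 peptidase genes 8 were tested, 4 fell and none rose, namely zgc:112160, npsn, f2 and mmp2. Over all tested peptidase genes, 148 of 577 fell and 63 rose. The median log2 change was -0.339 for the 8 members and -0.08 for all.

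Genes of the other roles passed in both directions or in small numbers. Of 18 tested genes with a transcription factor term, 2 rose and 3 fell, against 201 rises and 93 falls of 768 over all genes. The rises were sall1a and smad6a, an inhibitor of BMP signalling (0.36, adjusted p 0.012), and the falls were creb3l1, gtf2a2 (-0.42, adjusted p 0.0361) and rorab, a nuclear receptor gene of the ROR family (-0.55, adjusted p 0.0263). For gtf2a2 the groups overlapped, with 17.97 FPKM in mutant c and 17.9 FPKM in wild type b. The group rests on a text match and does not hold every such gene. It leaves out the homeobox genes irx3a, irx5a and eng2a, which rose as given above. Of 11 tested genes with a kinase activity term, vrk3 (0.49), prkdc (0.63) and ccne1 (0.55) rose and mylk3 (-0.54) fell, while over all such genes 139 of 886 rose and 146 fell. Of 9 RNA-binding genes dis3l, for an exosome ribonuclease, rose (0.70) and esrp2, a splicing regulator gene of epithelia, fell (-0.56), while over all such genes 98 of 543 rose and 63 fell. Of 9 extracellular genes 2 rose, scube2 (0.71) and gfod2 (0.60), and 2 fell, f2 and mmp2, while over all such genes 65 of 854 rose and 219 fell. Of 7 ubiquitin genes fam63b and ube3c rose, while over all such genes 97 of 539 rose and 65 fell. Of 6 mitochondrial genes 1 fell, while over all such genes 51 of 675 rose and 143 fell. The mitochondrial gene was uqcrfs1, for the iron-sulphur subunit of respiratory complex III, with 55 FPKM in mutants and 79.4 FPKM in wild type (means, n = 3 each; -0.64, adjusted p 0.000599).

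The most abundant members were muscle genes of the contractile thin filament. Tropomyosin gene tpma had 2025 ± 79.3 FPKM in mutants and 2412 ± 239 FPKM in wild type (SD, n = 3 each) and missed the threshold (log2 change -0.36, adjusted p 0.0543). The fast troponin T gene tnnt3b fell to 732 ± 27.2 FPKM in mutants, against 1027 ± 119 FPKM in wild type (-0.60, adjusted p 0.00316). The muscle markers were at means of 3418 FPKM in mutants and 4237 FPKM in wild type (mylpfa), 13901 and 15121 FPKM (actc1b) and 2997 and 3168 FPKM (ckma), and their part was not tested. Of the tandem troponin I genes beside it, tnni2b.2 fell (-0.45, adjusted p 0.00537) and tnni2b.1 missed the threshold (-0.30, adjusted p 0.0506). These tandem copies are alike, so their reads may be split between them.

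Of the 106 members that passed, 74 lay outside the rule by which genes were named, 37 of them higher and 37 lower, with a median absolute log2 change of 0.47. Their log2 changes ran from -1.64 to 2.14. Rises included the condensin gene ncapg2 (log2 change 0.61), the kinesin gene kif18a (0.42) and brd7, for a bromodomain protein (0.63). Falls included sord, for sorbitol dehydrogenase (-1.06), wdr76 (-1.16) and the receptor gene lgr4 (-0.64). These genes were chosen after their values were seen, and their adjusted p values ranged from 2.1e-05 for sord to 0.0304 for kif18a.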

How the data were processed

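The members and lists were chosen with earlier results of these data known. The authors deposited 1 table with raw read counts and FPKM per gene and sample. The deposited counts are whole numbers with no normalization. The deposited FPKM values equal the count scaled by exonic size and library total, within 0.006. The submitters' processing notes name STAR 2.7.10a, Salmon 1.9.0, fastp 0.23.2 and bcl2fastq 2.20.0.422 without roles. The sources used here do not give the counting tool, strand setting, build or annotation. Of the 426 member identifiers, 390 were in the gene name table, and symbols are those of the deposited table.

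The main test on the counts was quasi-likelihood (edgeR 4.0.16, R 4.3.3), with filterByExpr (minimum count 10, minimum total 15), TMM scaling and Benjamini-Hochberg adjustment over all 20032 genes tested, at 0.05. For SEs, the log2 change was divided by the root of its F statistic. Genes at 0 used a floor of 3 counts, and floors and intervals cover counting error only. Setting the 1 tested member at 0 to its bound left the median log2 change at 0.044. Replicates of a group differed by more than counting noise (chi-square over its degrees of freedom 4.215 to 14.54), so no 2 were taken for 1 library deposited again; whether they are separate biological samples is not shown by this. Counts of 20032 genes were also simulated for this comparison, with 19832 genes left unchanged and 50 altered at each fold. At 1.5-fold the test found 52% of its 50 altered genes, and at 2-fold 90%. It called 7 of the 19832 unchanged genes. Far fewer genes were altered in the simulation than the 33.2% that passed in the data. These rates therefore need not hold for the data.

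Named genes are the 10 largest rises and falls that passed without overlap and with at least 1 FPKM in the higher group, the 5 tested members nearest on each side, members with at least 20 counts in a group and at most 3 in the other, and members of 3 neighbourhood lists (24, 16 and 12 symbols). Role groups were substrings of the deposited Gene Ontology terms, and the one for G protein-coupled receptor matched 0 genes. Alternatives used limma 3.58.1 and DESeq2 1.42.0. An exact permutation test of 3 against 3 samples cannot go below 0.1 and was not used. Motif searches planned for promoters were not run, and sequences were not used here.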

Additional observations from a re-analysis of the deposited data

How the results depend on the processing

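The number of members that passed was 92 to 115 under other scalings, tests, filters and pseudocounts, 72 to 112 without 1 library, and 106 with gene midpoints, with shares beside those of all genes such as 23.1% and 24.1% without mutant b, 30.7% and 26.5% without a filter, and 25.7% and 26.7% with the replicate block. With 5 Mb on each side, which holds fewer genes, 57 of 158 passed, 36.1%, against 33.2% of all genes. Falls numbered 34 with library totals and 29 with limma on log2(FPKM + 1) and on log2(FPKM + 0.1). In these settings 67.9%, 69.1% and 68.5% of the members that passed were higher, against 65%, 66% and 65.9% over all genes. Rises numbered 34 to 58 without 1 library. In those fits 23.1% to 36.5% of members passed, against 24.1% to 33.1% of all genes. Changes of at least 2-fold numbered 8 with limma on log2(FPKM + 1) and 14 on log2(FPKM + 0.1), fits that also tested fewer members (265). The share of all genes with such a change was not counted in these fits. The count within 1 Mb, an alternative added after the data were seen, was 17 to 24, with shares of 36% to 51.1% of the genes tested there, each above the share of all genes in the same setting. These settings reuse the same libraries, and the set was singled out after its share was seen, so they are not independent support. Whether the letters a to c pair the samples is not stated. Same-letter deviations correlated at -0.116, -0.049 and -0.162, and those of other pairs at -0.003 to 0.148. Deviations within a group cancel out, so these values cannot decide whether the letters pair the samples. With the replicate block 78 members passed. Small changes that did not pass turned sign: cebpg was 0.087 with library totals, 0.081 and 0.085 with limma and -0.067 to 0.022 without 1 library, cep89 was -0.08 to 0.205 without 1 library, and celf1 was 0.011 with library totals and 0.008 with both limma settings. The cause was not tested. Of 32 named members that passed, 25 kept the call and direction in every alternative where they had a value. Few reads limit members such as c6ast4, and 122 members were too low to test.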

Other observations

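Among members too low to test, the second of the 2 rows with the symbol itln2 (intelectin 2, start 32874379) had 4, 0 and 3 counts in mutants, against 33, 2 and 19 counts in wild type. Wild type b, at 2 counts, lay within the mutant range. Intelectins are secreted lectins that bind microbial sugars. Of its neighbours, si:ch211-194p6.13 had 2, 3 and 5 counts in mutants and 20, 4 and 11 counts in wild type, and the other row named itln2 had no count. These values were chosen after they were seen and were not tested.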
